A study of Drosophila melanogaster with 6 samples.

Results

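The endoplasmic reticulum (ER) chaperones and the genes of the unfolded protein response were measured by RNA sequencing in the heads of 30d and 3d *Drosophila melanogaster*. The genes were chosen by FlyBase symbol as *Hsc70-3*, *Gp93*, *Cnx99A*, *Pdi*, *Ire1*, *Xbp1*, *PEK*, *crc* and *Atf6*. The rule reads no measured value, but the list was drawn up with earlier results of these data known. Of these 9 genes, 8 were found among the 17492 genes of the count table, and all 8 had enough reads to be among the 8773 genes tested. *Pdi*, a protein disulfide isomerase, was not analysed here, since genes were matched by identifier and the annotation release behind the counts may differ from the one used here. The same holds for *TER94* and *Tango1* among the related genes. The 2 groups were 30d flies and 3d flies, with 3 head samples of each age. Flies of both groups were of strain 5905, which the study's methods describe as w1118, a white-eyed line used as wild type, kept on standard food with a light and dark cycle. The methods describe aging of male flies kept from eclosion, while the labels of the RNA samples give no sex and no number of heads per sample. Nothing in the labels says whether the 3 samples of an age came from separate cultures, so the p-values measure the spread between these samples, which may be technical. The comparison of 30d with 3d heads asks which of these genes differed in RNA level with age.

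The ER is where membrane proteins and secreted proteins are folded. Its main Hsp70 chaperone is BiP, encoded by *Hsc70-3*, which works beside the ER form of Hsp90, encoded by *Gp93*, and beside lectin chaperones such as calnexin, encoded by *Cnx99A*, that hold glycoproteins. When unfolded proteins accumulate, sensors in the ER membrane start the unfolded protein response. Ire1 cuts the RNA of *Xbp1* so that it can be spliced to a form that encodes an active transcription factor. PEK, the fly PERK kinase, phosphorylates the translation factor eIF2alpha, which lowers general translation and favors translation of the transcription factor encoded by *crc*, the fly ATF4. Atf6 is a membrane-bound factor that is cut free by proteases in mammals. The splicing of *Xbp1*, the phosphorylation of eIF2alpha, the translation of *crc* and the cutting of Atf6 all take place after transcription, and gene-level read counts do not show them. In fly photoreceptors calnexin is known for its part in the folding of rhodopsin.

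The samples held between 3176380 and 3741860 reads counted on genes. Levels are given as CPM, the reads of a gene relative to all reads of its sample, brought to the usual fixed total after scaling between samples. A gene was called where its adjusted p-value in edgeR's quasi-likelihood test was under 0.05. Of all genes tested 30.4% were called, 14.4% as higher and 16.1% as lower at 30d. Markers of the cells expected in a head were present, with *ninaE*, the main rhodopsin, at 31265 CPM in 30d heads and 25142 CPM in 3d heads. The summed level of 14 muscle markers was 2639 to 2760 CPM in 30d heads against 4439 to 6528 CPM in 3d heads, and the highest value was that of 3d replicate 1. With RNA from whole heads, fewer cells of a type and less RNA per cell cannot be told apart.

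Of the 8 genes measured, 5 rose at 30d with an adjusted p-value under 0.05 and 0 fell in edgeR's test. Beside these 5 of 8 stand the 14.4% of all genes tested that edgeR called higher. Here and below, that share covers genes of every level tested and is not matched to the levels of the genes listed. At an unadjusted p-value under 0.05 there were 6 higher and 0 lower genes, against 1754 and 1828 of the 8773 genes tested. DESeq2 and limma-voom each called 5 higher and 0 lower. Of the 8773 genes tested, DESeq2 called 728 higher and 1034 lower, and limma-voom 1250 and 1407. The genes that rose were *Cnx99A*, *Xbp1*, *crc*, *Hsc70-3* and *Gp93*, by 1.23 to 1.44-fold. *PEK*, *Ire1* and *Atf6*, which encode the sensors, did not pass the threshold. In 6 of the 8 genes, the 5 called genes and *PEK*, the lowest 30d sample exceeded the highest 3d sample, as it did for 22.3% of all genes tested. The median log2 fold change of the 8 genes was 0.33, against 0.02 for all genes tested. Over all genes tested, the log2 fold change had a median size of 0.24 in either direction and a 90th percentile of 0.65. The 5 called genes lay between these values, and 150 genes were called with a rise of at least 1.

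**Figure D1:**
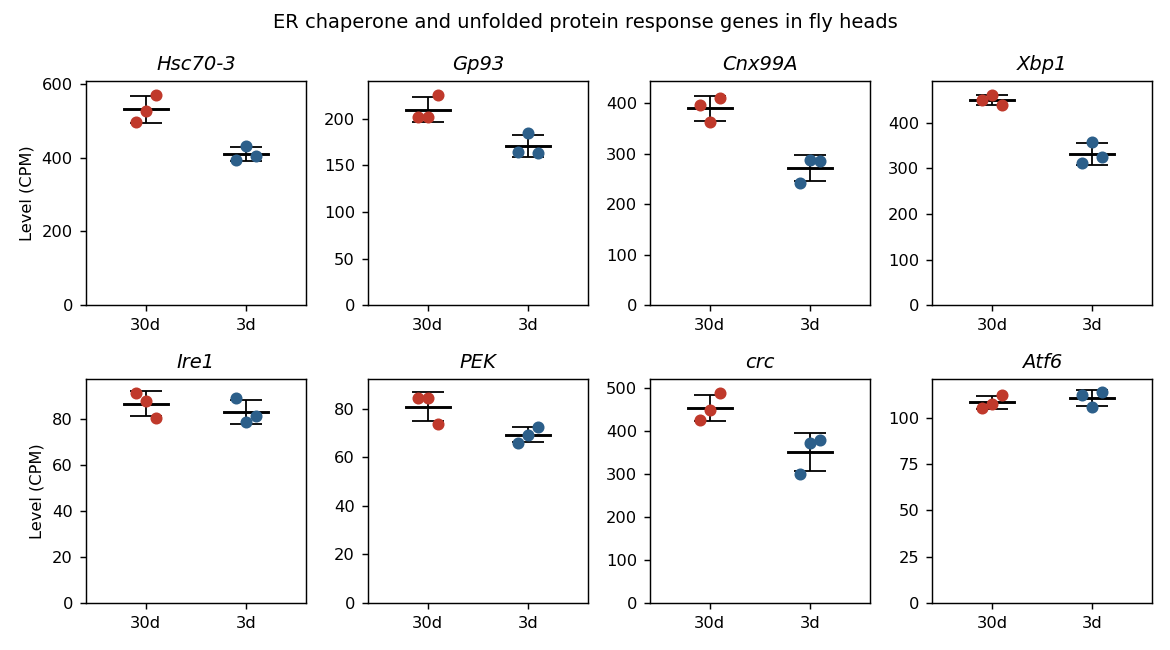
Level of each gene in CPM, on axes that start at 0, in the 3 samples at 30d (red) and the 3 samples at 3d (blue), with the mean and SD of each age in black. The ages do not overlap for *Hsc70-3*, *Gp93*, *Cnx99A*, *Xbp1*, *PEK* and *crc*, and they overlap for *Ire1* and *Atf6*.

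*Hsc70-3* (FBgn0001218) lies on chromosome X of dm6, from 11801696 to 11807117 on the minus strand. Its level was 497, 526 and 569.9 CPM in the 30d samples, against 394, 432 and 405 CPM in the 3d samples. The lowest 30d sample stood above the highest 3d sample. The means were 531 ± 36.9 CPM at 30d and 410.2 ± 19.9 CPM at 3d (SD, n = 3 each), a rise of 0.37 ± 0.08 (SE) on the log2 scale (edgeR adjusted p = 0.00442). The call held in all 13 alternatives, at 0.32 to 0.45.

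*Gp93* (FBgn0039562, chromosome 3R, 27948711 to 27952151, plus strand) encodes the ER member of the Hsp90 family. It had 202, 202 and 225 CPM in 30d heads and 164, 185 and 164 CPM in 3d heads, so that the 30d samples were all higher, with a gap smaller than for *Hsc70-3*. On the log2 scale it rose by 0.30 ± 0.08 (SE, edgeR adjusted p = 0.0169). This call was the least stable of the 5 over the alternatives. It was 0.24 (adjusted p = 0.0799) when 30d replicate 3, its highest sample, was left out, and 0.27 (adjusted p = 0.0735) when 3d replicate 3 was, while over all alternatives the adjusted p-value lay between 0.00443 and 0.0799.

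*Cnx99A* (FBgn0015622, chromosome 3R, 29315254 to 29319644, minus strand) had the largest change of the 8 genes. The 30d samples held 396, 363 and 411 CPM and the 3d samples 241, 288 and 285 CPM. Every 30d sample exceeded the highest 3d sample by a margin wider than the spread within either age. The means were 389.6 ± 24.5 CPM at 30d and 271 ± 25.9 CPM at 3d (SD, n = 3 each), a 1.44-fold difference (0.52 ± 0.09 (SE) on the log2 scale, edgeR adjusted p = 0.000919). This log2 fold change was larger than that of 91.5% of all genes tested. Of the rhodopsins, *ninaE* had a log2 fold change of 0.31 and did not pass the threshold (edgeR adjusted p = 0.103). *Rh3*, *Rh4* and *Rh6* rose by 0.63, 0.75 and 0.55 on the log2 scale, and *Rh5* had 0.04 with overlapping ages (edgeR adjusted p = 0.833). Of the 12 photoreceptor markers, 3 were called higher and 2 lower, beside 14.4% and 16.1% of all genes tested. The 2 lower were *inaC* and *inaD*, at -0.56 and -0.65. A link of these genes to *Cnx99A* was not tested.

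In the Ire1 branch, *Xbp1* was called and *Ire1* was not, and the difference between their changes was examined as a ratio. *Xbp1* (FBgn0021872, chromosome 2R, 21143545 to 21145750, plus strand) had 450.0, 459 and 439 CPM in 30d heads, against 311, 358 and 324 CPM in 3d heads. The 30d samples lay close together and well above the 3d samples. The means were 449 ± 10.3 CPM at 30d and 331 ± 24.3 CPM at 3d (SD, n = 3 each), a rise of 0.44 ± 0.08 (SE) on the log2 scale (edgeR adjusted p = 0.00131), and the call held in all 13 alternatives. The count is of all *Xbp1* RNA, cut or uncut. *Ire1* (FBgn0261984, chromosome 3R, 19853908 to 19861291, minus strand), which encodes the enzyme that cuts it, had 91.3, 87.5 and 80.4 CPM in 30d heads and 88.7, 78.7 and 81.2 CPM in 3d heads. The ages overlapped, and the log2 fold change of 0.06 had a 95% interval of -0.13 to 0.25 (edgeR adjusted p = 0.632). Exons of *MICU3* overlap 12.3% of the exon bases of *Ire1*, and a read lying wholly in such a stretch was not counted for it. Within each sample, the level of *Xbp1* was 4.93, 5.25 and 5.46 times that of *Ire1* at 30d and 3.51, 4.55 and 3.99 times at 3d. This ratio, like the other ratios between genes given here, was chosen after the values were seen, and its ages did not overlap (exact two-sided permutation test, p = 0.1, the smallest p that 3 against 3 samples can give).

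In the PEK branch, *PEK* (FBgn0037327, chromosome 3R, 5458563 to 5464753, minus strand) had 84.4, 84.2 and 73.8 CPM in 30d heads and 66.0, 69.4 and 72.3 CPM in 3d heads. The ages were separate by a narrow gap. The log2 fold change was 0.22, with a 95% interval of 0.02 to 0.42, and did not pass after adjustment over all genes (edgeR adjusted p = 0.0848). Scaled only by library size, it was 0.30 and passed (adjusted p = 0.0324), while DESeq2's Wald test gave the largest adjusted p-value, 0.334.

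*crc* (FBgn0000370, chromosome 2L, 21310866 to 21319527, plus strand) had 426, 447 and 487 CPM in 30d heads, against 299, 372 and 378 CPM in 3d heads. All 30d samples were higher, and 3d replicate 1 stood below the other two 3d samples. The means were 453 ± 31.0 CPM at 30d and 349.8 ± 44.1 CPM at 3d (SD, n = 3 each), a rise of 0.37 ± 0.10 (SE) on the log2 scale (edgeR adjusted p = 0.0122). Without 30d replicate 3 it was 0.32 and lost its call (adjusted p = 0.0554), and over the 13 alternatives the adjusted p-value lay between 0.000711 and 0.0554. Without 3d replicate 1 it was 0.27 and kept its call. Of the 3423 exon bases of *crc*, 73.5% are shared with *CG46314*, a gene listed with 0 counts in all samples. Under this annotation, a read lying wholly in shared exons was not counted for either gene. The counts of *crc* then come from reads that touch the remaining 908 bases. A transcript of *crc* made only of shared exons would not be measured. The ratio of *crc* to *PEK* was 5.65 ± 0.831 at 30d and 5.04 ± 0.450 at 3d (SD, n = 3 each) and overlapped between the ages (exact two-sided permutation test, p = 0.5).

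*Atf6* (FBgn0033010, chromosome 2R, 5144733 to 5154756, plus strand) encodes the third sensor. It had 105, 107 and 112 CPM in 30d heads and 112, 106 and 114 CPM in 3d heads, and the ages overlapped. The log2 fold change was -0.03 with a 95% interval of -0.19 to 0.14 (edgeR adjusted p = 0.812), and scaling by library size alone turned it to 0.05. The level of *Hsc70-3*, the chaperone, was 4.71, 4.89 and 5.08 times that of *Atf6* in the 30d samples and 3.52, 4.09 and 3.55 times in the 3d samples. These ratios did not overlap between the ages (exact two-sided permutation test, p = 0.1).

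**Figure D2:**
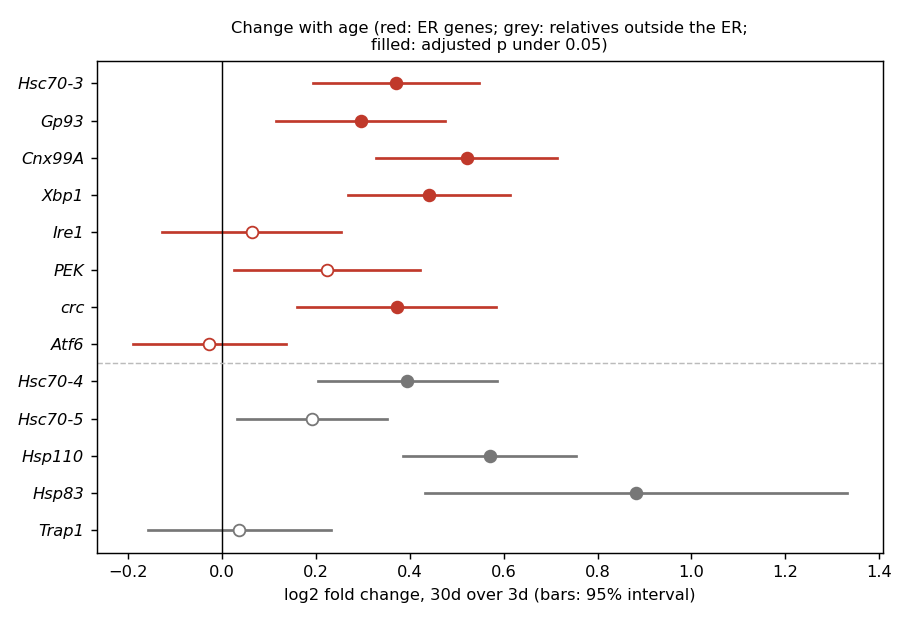
Log2 fold change of 30d over 3d with its 95% interval for the 8 ER genes (red) and for 5 Hsp70 and Hsp90 relatives outside the ER (grey). Filled points passed an adjusted p-value of 0.05 in edgeR's test. The intervals of *Ire1*, *Atf6* and *Trap1* include 0, and *Hsp83* has the largest value and the widest interval.

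Per kilobase of exon, *Xbp1* had the highest level of the 8 genes at both ages, 209.8 CPM per kilobase at 30d and 155 at 3d. On this scale it stood above 95.7% of the 8699 genes tested that had an exon length. *Hsc70-3*, *Cnx99A* and *crc* followed with 148, 139 and 132 CPM per kilobase at 30d and 114, 97.1 and 102 at 3d. Neighbors by level among these 3 genes overlapped in their samples at both ages and did not differ beyond their spread. At 3d *Hsc70-3* and *Cnx99A* were not neighbors, and every sample of *Hsc70-3* stood above every sample of *Cnx99A*. If only the unshared bases of *crc* are taken as its length, its level becomes 499 CPM per kilobase at 30d and 385 at 3d, above that of *Xbp1*, so the place of *crc* in this order is uncertain. *Gp93* was next with 73.8 CPM per kilobase at 30d and 60.1 at 3d. The sensors were lowest, *Atf6* with 26.5 CPM per kilobase at 30d and 27.1 at 3d, *Ire1* with 21.4 at 30d and 20.5 at 3d, and *PEK* with 16.6 at 30d and 14.2 at 3d. From *Gp93* down, no gene's samples overlapped those of the next at either age.

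Within an age, some samples were high or low for several of these genes. Among the 3d samples, replicate 1 had the lowest level of *Hsc70-3*, *Xbp1*, *PEK*, *crc* and *Cnx99A*. Among the 30d samples, replicate 3 had the highest level of *Hsc70-3*, *Gp93*, *crc*, *Cnx99A* and *Atf6* and the lowest of *Xbp1*, *PEK* and *Ire1*. The coefficient of variation within an age lay between 2.29% and 12.6%, and the largest was that of *crc* at 3d. Over the 6 samples, which fall into 2 ages and share their scaling, the genes most like *Hsc70-3* in log2 CPM were *GstD9*, *Pi3K92E* and *Frl*, with correlations of 0.998, 0.998 and 0.997. For *Xbp1* they were *CG3328*, *CG5646* and *wrapper*, for *crc* *CG9396*, *CG5793* and *Srp19*, for *Gp93* *CG5966*, *Dhpr* and *ssp7*, and for *Cnx99A* *Prp5*, *CG13794* and *CG11951*. Each of these 5 genes had a correlation above 0.95 with 142 to 341 of the 6442 genes compared.

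**Figure D3:**
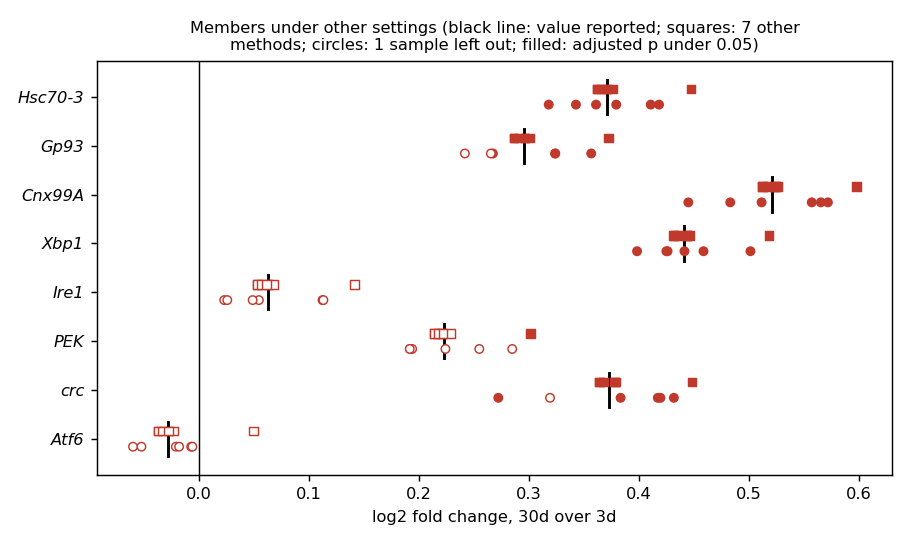
Log2 fold change of 30d over 3d of the 8 genes under the settings tried. The black line is the value reported, squares are the 7 other methods, circles are the 6 fits with a sample left out, and filled points passed an adjusted p-value of 0.05. *Hsc70-3*, *Cnx99A* and *Xbp1* passed in all 13, *crc* in 12 and *Gp93* in 11.

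The rest of the ER machinery was followed in 7 lists of related genes, whose counts stand beside the 14.4% called higher and 16.1% called lower of all genes tested. Among the ER chaperones and lectins, 2 of the 10 genes tested rose and 0 fell, a share not far from that background, with a median log2 fold change of 0.15. *P58IPK*, a co-chaperone of BiP, rose by 0.36 on the log2 scale and *Calr*, the soluble lectin calreticulin, by 0.29. *Calr* kept its call in 9 of 13 alternatives. Left out in turn, 30d replicates 2 and 3 and 3d replicates 1 and 3 each ended it, with adjusted p-values of 0.0804, 0.139, 0.106 and 0.0544. *P58IPK* kept its call in 11, losing it in DESeq2's Wald test (adjusted p = 0.0729) and at 0.0684 when 30d replicate 3 was left out. *ninaA*, the rhodopsin chaperone of photoreceptors, was listed at 0, and all its exon bases are shared with another gene of the count table. Of 8 genes of oxidative folding, 2 rose and 0 fell, with a median of 0.11. *CaBP1*, a disulfide isomerase, had 61.0, 54.2 and 58.1 CPM at 30d and 36.8, 42.1 and 45.0 CPM at 3d, and its rise of 0.48 held in all 13 alternatives. *ERp60*, another disulfide isomerase, rose by 0.27 and kept its call in 9 of 13, losing it without 30d replicate 2 or 3 or 3d replicate 1 or 3 (adjusted p = 0.0886, 0.0931, 0.0526 and 0.0684).

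Genes for entry of proteins into the ER had the highest median of the 7 lists, 0.25, with 4 of 19 genes called higher and 0 lower, beside 14.4% called higher of all genes tested. In this list 10 of the 19 genes had every 30d sample above every 3d sample, beside 22.3% of all genes tested. *Sec61beta*, a subunit of the translocation channel, rose the most, with 71.6, 66.5 and 74.7 CPM at 30d and 43.0, 47.2 and 55.4 CPM at 3d. On the log2 scale it rose by 0.54 ± 0.11 (SE, edgeR adjusted p = 0.00245) and held in all 13 alternatives. *TRAM*, *SrpRalpha* and *Sec63*, which act at the same channel or bring ribosomes to it, rose by 0.41, 0.36 and 0.33. They lost their calls in DESeq2's Wald test (adjusted p = 0.159, 0.112 and 0.136). When 30d replicate 2 was left out they had adjusted p-values of 0.0907, 0.0525 and 0.0634. *TRAM* and *Sec63* also lost their calls without 30d replicate 3 (0.134 and 0.0914) or 3d replicate 3 (0.0676 and 0.0774), and *TRAM* without 3d replicate 2 (0.132). Exons of an antisense gene overlap 60.7% of the exon bases of *Sec63*. Under this annotation, counting without strand left out a read lying wholly in such a stretch. The counts of *Sec63* then come from reads that touch its remaining 1157 bases. Scaling by library size alone raised the calls in this list to 8, and DESeq2's Wald test lowered them to 1. Without 30d replicate 2 there was 1 call, and without 30d replicate 3 or 3d replicate 3 there were 2 calls each.

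Of the 7 genes of the oligosaccharyltransferase, the enzyme that attaches sugar chains, 2 rose and 0 fell, with a median of 0.23. These were *OstDelta*, by 0.39, and *CG33303*, by 0.34. Both lost their calls in DESeq2's Wald test (adjusted p = 0.0518 and 0.139). Both also lost them without 30d replicate 3 (adjusted p = 0.0828 and 0.0780) or 3d replicate 1 (adjusted p = 0.0594 and 0.110), and *CG33303* without 30d replicate 1 or 2 (adjusted p = 0.0516 and 0.0575). Among 7 genes of COPII vesicles, which carry cargo out of the ER, 1 rose and 0 fell, with a median of 0.08. This share was near the 14.4% called higher of all genes tested. The gene that rose was the coat subunit *Sec13*, by 0.38. Its call was lost in DESeq2's Wald test, without 30d replicate 2 and without 3d replicate 1, where the adjusted p-values were 0.0749, 0.0684 and 0.0562. In the degradation of ER proteins, 0 of 11 genes were called in either direction by edgeR, with a median of 0.00 and log2 fold changes between -0.21 and 0.33. At an unadjusted p-value under 0.05 there were 1 higher and 1 lower gene in that list, and DESeq2 called 0. In that list 1 gene was called higher by limma-voom and by edgeR with scaling only by library size, with either other filter, with the replicate block, without 30d replicate 3 and without 3d replicate 2. *Herp* and *Edem1*, known ER stress genes that were chosen after their values were seen, had log2 fold changes of -0.01 and 0.03, and both changed sign under an alternative, *Edem1* to -0.08 without 30d replicate 3 and *Herp* to 0.07 where samples were scaled only by library size.

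**Figure D4:**
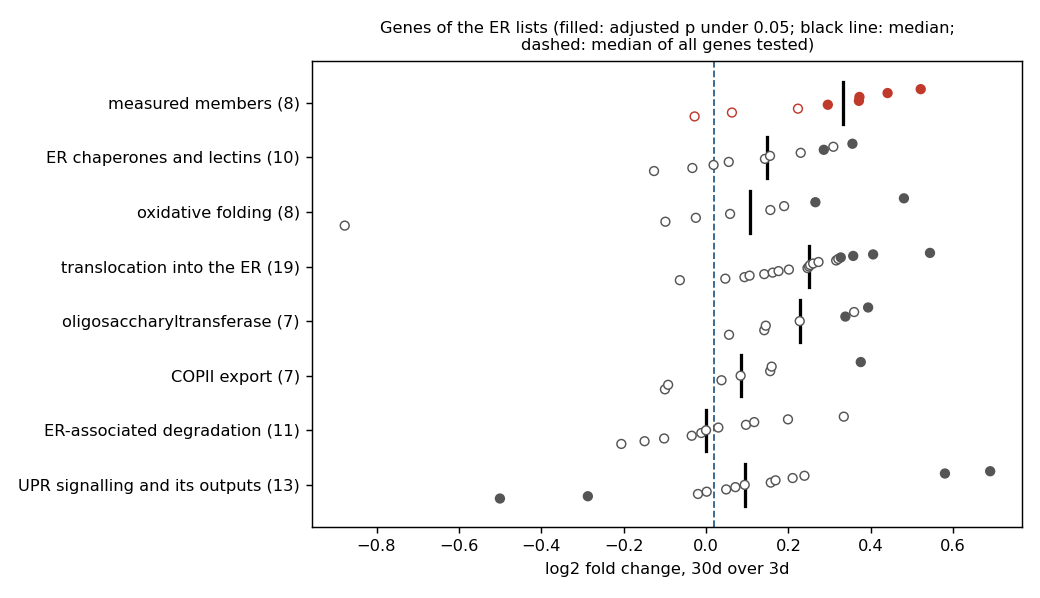
Log2 fold change of 30d over 3d of every gene tested in the member list (red) and the 7 lists of other ER genes (grey), with the number of genes tested in brackets. Filled points passed an adjusted p-value of 0.05, black lines are medians, and the dashed line is the median of all genes tested, 0.02. The median is 0.33 for the 8 measured genes, 0.25 for translocation into the ER and 0.00 for ER-associated degradation.

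Of 13 signalling genes and known outputs of the response, 2 were called higher and 2 lower, shares near the 14.4% and 16.1% of all genes tested, with a median of 0.09. *trbl*, whose mammalian relative TRIB3 is an ATF4 target, had 21.2, 23.5 and 20.0 CPM at 30d and 12.8, 13.7 and 13.6 CPM at 3d. It rose by 0.69 on the log2 scale (SE 0.14, edgeR adjusted p = 0.00290) and held in all 13 alternatives. *RtcB*, whose mammalian relative is the ligase that joins the cut *Xbp1* RNA, rose by 0.58 and kept its call in 11 of 13, lost in DESeq2's Wald test (adjusted p = 0.0556) and at 0.0553 when 30d replicate 3 was left out. *eIF4EHP*, a cap-binding repressor of translation, had 172, 177 and 156 CPM at 30d and 246, 225 and 244 CPM at 3d. It fell by 0.50 on the log2 scale (SE 0.08, edgeR adjusted p = 0.000636) in all 13 alternatives. *PPP1R15*, which directs the removal of phosphate from eIF2alpha, fell by 0.29 and kept its call in 9 of 13, lost with scaling by library size alone (adjusted p = 0.0838), in DESeq2's Wald test (adjusted p = 0.0661), and without 30d replicate 3 or 3d replicate 2, where it had 0.0795 and 0.0807. *Thor*, the translation repressor 4E-BP and a crc target in flies, was also chosen after its values were seen, and it had a log2 fold change of 0.09 with a 95% interval of -0.13 to 0.32, and -0.01 without 30d replicate 3.

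The ER chaperones were set beside their relatives in other compartments, of which 3 of 5 rose and 0 fell. Of all genes tested 14.4% were called higher and 16.1% lower. *Hsc70-4*, the main cytosolic Hsp70, had 2119, 2335 and 2371 CPM in 30d heads and 1629, 1834 and 1727 CPM in 3d heads. Its log2 fold change of 0.39 was close in size to that of *Hsc70-3*. The ratio of *Hsc70-3* to *Hsc70-4* was 0.233 ± 0.00770 at 30d and 0.237 ± 0.00400 at 3d (SD, n = 3 each) and overlapped between the ages (exact two-sided permutation test, p = 0.5). *Hsc70-5*, the mitochondrial Hsp70, had a log2 fold change of 0.19 and did not pass (adjusted p = 0.0678), though it passed with scaling by library size alone. The ratio of *Hsc70-3* to *Hsc70-5* was 1.76 ± 0.0928 at 30d and 1.55 ± 0.0259 at 3d without overlap (exact two-sided permutation test, p = 0.1, n = 3 each). *Hsp110*, a cytosolic co-chaperone of Hsp70, rose by 0.57.

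In the Hsp90 family, the cytosolic gene *Hsp83* had 1052, 1526 and 1317 CPM at 30d and 426, 861 and 825 CPM at 3d, a rise of 0.88 ± 0.21 (SE) on the log2 scale. The lowest value was that of 3d replicate 1. The ratio of *Gp93* to *Hsp83* was 0.165 ± 0.0303 at 30d and 0.266 ± 0.103 at 3d (SD, n = 3 each), and the 30d samples were all lower (exact two-sided permutation test, p = 0.1). *Trap1*, the mitochondrial Hsp90, had a log2 fold change of 0.04 with a 95% interval of -0.16 to 0.23, which changed sign to -0.0023 without 30d replicate 2.

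Markers of the cell types of the head moved with age beside the ER genes. The summed level of the 8 ER genes was 2251 to 2398 CPM in 30d heads and 1676 to 1889 CPM in 3d heads. Over the same samples, 11 of 12 muscle markers tested, 6 of 7 neuron markers and 4 of 7 glia markers fell and 0 of each rose. Beside these counts and those of the other markers stand 14.4% called higher and 16.1% called lower of all genes tested. The summed level of the neuron markers was 3121 to 3397 CPM at 30d against 4365 to 5205 CPM at 3d, and that of the glia markers 1333 to 1396 CPM at 30d against 1919 to 2336 CPM at 3d. The 8 fat body markers summed to 5919 to 7540 CPM at 30d and 5295 to 5794 CPM at 3d, with 2 of 5 tested genes higher and *Fbp2* at 0 in all samples. Most of this sum was *apolpp*, with means of 6232 CPM at 30d and 5133 CPM at 3d, which was not called (edgeR adjusted p = 0.0648). *Lsp2* had a log2 fold change of -0.78 and was not called either (edgeR adjusted p = 0.168). Photoreceptor markers summed to 58276 to 70726 CPM at 30d and 50159 to 59601 CPM at 3d, overlapping, with 3 of 12 higher and 2 lower. Of 6 hemocyte and basement membrane markers tested, 2 rose, *Hml* and *NimC1*, and 3 fell, *Col4a1*, *vkg* and *Pxn*. In the same list, *eater* had a log2 fold change of -0.29 and was not called (edgeR adjusted p = 0.250). The sum of this list was 902 to 1058 CPM at 30d against 1138 to 1431 CPM at 3d. Without 3d replicate 1, the sample with the most muscle marker RNA, the same 5 ER genes were called higher and 0 lower, with log2 fold changes of 0.34 for *Hsc70-3*, 0.40 for *Xbp1*, 0.27 for *crc*, 0.27 for *Gp93* and 0.44 for *Cnx99A*. The marker sums still stood apart without it, with muscle markers at 4439 and 4465 CPM in the other 3d samples. The part of these shifts in the levels of the ER genes was not tested.

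**Figure D5:**
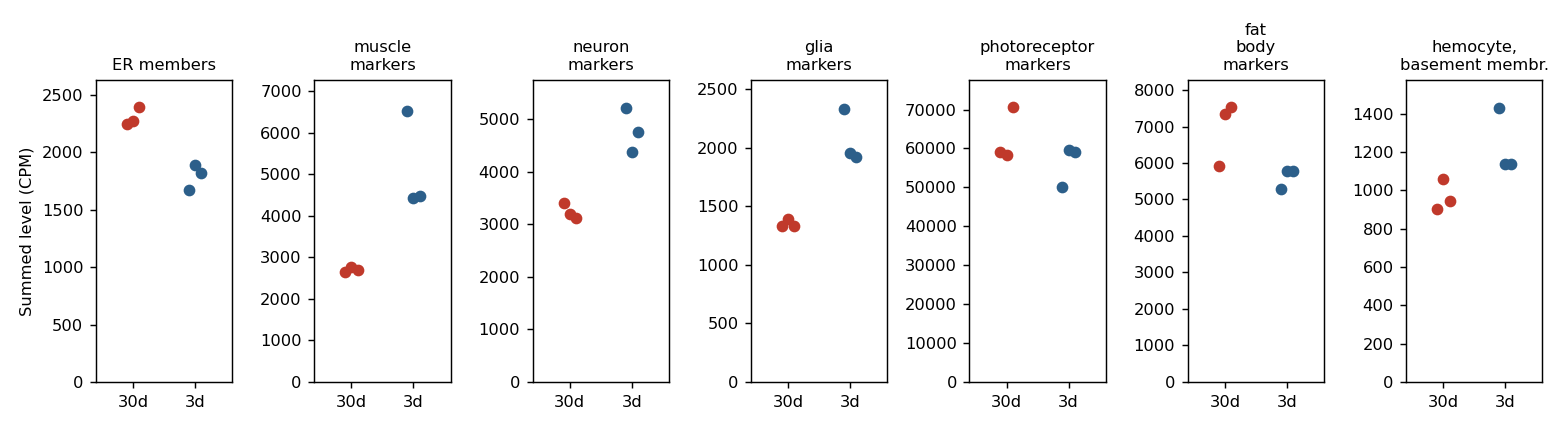
Summed level in CPM, on axes that start at 0, of the 8 ER genes and of 6 marker lists in the 3 samples at 30d (red) and the 3 samples at 3d (blue). The sums of the ER genes and of the fat body markers, the latter mostly *apolpp*, are higher in every 30d sample. Those of the muscle, neuron, glia and of the hemocyte and basement membrane markers are lower, and those of the photoreceptor markers overlap.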

How the data were processed

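PolyA-selected RNA from fly heads was sequenced from a single end on an Illumina MiSeq. The authors mapped its reads to dm6 using STAR and obtained reads per gene with HTSeq in its strict intersection mode and without strand, and the deposited values are these raw counts. The annotation release used for counting is not given in the sources used here. Symbols and positions were taken by FlyBase identifier from an Ensembl annotation on dm6 coordinates, which holds 17356 of the identifiers, and exon overlaps were computed against genes of the count table. Of the sample columns, 0 were left unused.

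Low genes were removed with filterByExpr at a minimum count of 10, libraries were scaled by TMM, and 30d was compared with 3d over all 6 samples by the two-sided quasi-likelihood test in R 4.3.3 with edgeR 4.0.16, p-values being adjusted by Benjamini-Hochberg across 8773 genes, and 0.05 was the threshold. The scripts were tested on simulated data. The standard error is the size of the log2 fold change divided by the square root of F. Pairs of samples of an age differed by more than counting noise, chi-squared over its degrees of freedom being 2.21 to 5.87. Reads carry no molecular identifiers, so counting error is a lower limit. Alternatives were DESeq2's size factors, library size alone, DESeq2 1.42.0, limma-voom (limma 3.58.1), 2 other filters, the replicate number as a block and each sample left out. The members and lists were chosen with earlier results of these data known. The genes named were all members, up to 4 called genes of each list, the relatives outside the ER and, for each called member, the 3 genes with the highest Pearson correlation among genes with a mean of at least 50 counts, on log2(CPM + 1). The photoreceptor, fat body, hemocyte and basement membrane markers, *Herp*, *Edem1* and *Thor* were named outside this rule, after their values were seen. No sequences were printed, since no sequence table was used here.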

Additional observations from a re-analysis of the deposited data

How the results depend on the processing

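Over the 13 alternatives, the number of ER genes called higher was 5 to 6 with the other methods and 3 to 5 with a sample left out, and 0 were called lower in any. The value of 3 was without 30d replicate 3, where *crc* and *Gp93* lost their calls. *PEK* passed with library size alone, at 0.30. The genes called over the whole table were 741 higher with DESeq2's Wald test, against 1259 in edgeR's test, and with library size alone 1715 higher and 1053 lower, against 1259 and 1410. With a sample left out they were 876 to 1205 higher and 1003 to 1391 lower. Library size alone shifted all genes by a median of 0.077 on the log2 scale and turned *Atf6* to 0.049 and *Herp* to 0.066. With a sample left out, *Herp* lay between -0.029 and 0.017, *Edem1* between -0.084 and 0.139, *Thor* between -0.011 and 0.170 and *Trap1* between -0.0023 and 0.093. Of the called genes among the members, the lists of related genes and the relatives outside the ER, 0 changed direction under these alternatives, and other called genes were not followed. The cause of these differences was not tested. The samples shared replicate numbers, but the deviations of same-numbered samples correlated at 0.19, -0.02 and 0.07, and not every sample correlated best with its own number, so the numbers were not taken as pairs. With the replicate block 5 ER genes were called higher, as without it, and the calls over all genes were 1389 higher and 1518 lower. Depth limits the lowest genes most, *trbl* for one resting on 39 to 86 reads per sample.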
